A study of Mus musculus with 18 samples.

Results

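Gene expression was compared between 2 lines of BV2 cells, an immortalized line derived from mouse microglia, without any treatment: the line labelled BAK1-KD (KD below) and the line labelled NC. The 6 libraries, KD control replicates 1 to 3 and NC control replicates 1 to 3, were taken from the 18 of the series by their titles, and no measured value was used to choose them. The other 12 libraries come from the same lines exposed to oxyhemoglobin, oxygen-loaded hemoglobin such as red blood cells release, at a labelled dose of 10 mM for 12 h or 24 h, with 3 libraries per line and time. That dose is high for a protein, and its unit could not be checked. They serve here to look at the same line difference in other libraries. By their labels all groups share the cell line and the culture medium, and the control groups differ in the line alone. NC and KD are not spelled out in the labels, which also leave unstated how the KD line was made and whether it is 1 clone. Nothing says that replicates of a group came from separate cultures. The p-values therefore rest on library-to-library spread that may be technical. Anything else that sets separately kept lines apart cannot be told apart from the label.

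Bak1 encodes BAK, a member of the Bcl2 family that, with its relative BAX, opens pores in the outer mitochondrial membrane when a cell enters apoptosis. Microglia are the resident macrophages of the brain, known for clearing debris and dying cells and for making the C1q proteins that start the classical complement pathway. The integrated stress response is a pathway common to most cells, in which phosphorylation of the initiation factor eIF2 slows translation in general while the transcription factor ATF4 is still made. ATF4 and its partners then switch on genes for amino acid uptake and synthesis, for one-carbon metabolism and for ending the response.

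The control libraries held 4545042 to 5772212 counts, and 1 gene, CT010467.2, took 17.39 to 21.46% of them in NC and 13.84 to 20.95% in KD. Mitochondrially encoded genes took 1.06 to 1.55% in NC and 1.27 to 2.37% in KD. In a principal component analysis of the 6 libraries the first axis, with 31% of the variance, mixed the lines, and the second, with 29%, held all NC libraries on one side (-35.7 to -18.7) and all KD libraries on the other (25.4 to 34.2). General macrophage genes were present in every control library but differed widely in level. Laptm5 had 2200 to 3140 counts, Spi1, the transcription factor PU.1, 832 to 1664, and Csf1r, the receptor for colony-stimulating factor 1, 50 to 71. Others were scarce: Cd68 had 23 to 48 counts, Itgam 11 to 25, Fcgr3 4 to 28, Tyrobp 2 to 20 and Aif1 1 to 6. Markers of microglia in the brain were low, with P2ry12 at 0 to 3 counts and Sall1 at 0 in all 6. At these depths 3 counts correspond to 0.52 to 0.66 CPM in a library, where CPM is the count scaled to a library size of 1e6, and this limit, like every interval here, covers counting error only. The summed level of 15 microglia and macrophage markers ran from 856 to 1099 CPM in NC and from 1121 to 1343 CPM in KD, and none of the 11 tested passed an adjusted p of 0.05 in edgeR's quasi-likelihood test (3 at an unadjusted p under 0.05, all higher in KD, and 1, Tmem119, by DESeq2). Markers of neurons, astrocytes, oligodendrocytes, erythroid, fibroblast, endothelial and other blood cells summed to at most 16.8 CPM per list in any control library, and 4 to 8 markers of each list were at 0 in all 6. No such marker passed in edgeR or DESeq2, and 1 each of the neuron, astrocyte and fibroblast or endothelial lists was higher at an unadjusted p under 0.05.

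The gene that names the lines was read rarely, so its counts check the label only coarsely, and together they were not lower in KD. Bak1 (chr17:27019810-27029009, minus strand, GRCm38) had 3, 3 and 0 counts in NC replicates 1 to 3 and 2, 4 and 7 in KD. The ranges overlapped, and the KD libraries held 13 counts together against 6 in NC. The rate in KD was 2.19 times that in NC, with an exact binomial 95% interval of 0.778 to 7.03 and a two-sided exact p of 0.113. By counting error alone the interval reaches no rate in KD below 0.778 times that in NC. Spread between libraries is not covered by it. An exact two-sided permutation test of log2(CPM + 1) over the 6 libraries gave p = 0.4, where 0.1 is the smallest that 3 against 3 allows. At 12 h Bak1 had 2, 7 and 4 counts in NC and 4, 1 and 5 in KD. At 24 h it had 1, 0 and 5 in NC and 12, 2 and 2 in KD. Bak1 did not pass the filter on low counts. Ggnbp1, on the other strand, shares 7.7% of its exon bases with Bak1 and had 30 to 38 counts in NC control and 39 to 54 in KD control. The strand setting of the counting is not given, so how reads from the overlap were assigned is not known. The labels do not say how the KD line was made, and why the counts were not lower in KD was not tested. Of 50 genes that start within 500000 bases of Bak1, 18 were tested, with a median log2 fold change of -0.01, and none passed the threshold in edgeR or DESeq2 or had an unadjusted p under 0.05.

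Across the genome 15996 genes were tested, and 330 passed an adjusted p of 0.05 (Benjamini-Hochberg) between the untreated lines, 2.06% of those tested. Of these, 122 were higher in KD (0.763%) and 208 lower (1.3%), so 37% of the calls were higher, and 78 and 126 of them differed at least 2-fold. On log2(TPM + 1) values tested with limma, 51% of 208 calls were higher. All 330 had non-overlapping libraries, as did 2671 of the genes tested (16.7%). At an unadjusted p under 0.05 there were 1936 genes, and the median log2 fold change of all genes was 0.002. Leaving out 1 of the 6 libraries left 213 to 302 calls, with the count more than 1.5 times smaller without NC replicate 3 (216), KD replicate 1 (214) or KD replicate 3 (213). Adding the library number as a block, a pairing that the labels do not give, raised the count to 1496, with 329 of the 330 among them. The count was 126 without both libraries numbered 2, and 160 when the 6 control libraries were fitted alone, without the 12 treated libraries in the estimate of spread. In that fit 62 of 96 calls of genes named here stood, and the losses are given with each list as lost in the controls alone. In bulk RNA, fewer cells that express a gene and less of its RNA in each cell cannot be told apart. Below, levels are CPM with libraries scaled by TMM factors, listed for replicates 1, 2 and 3 in that order, and differences are log2 fold changes of KD over NC with their standard errors (SE). Whether a call depends on a library is given for each gene as the number of the 6 fits, each without 1 control library, in which it was lost. Counts of calls per list stand against 0.763% of all genes tested called higher and 1.3% called lower.

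**Figure D1:**
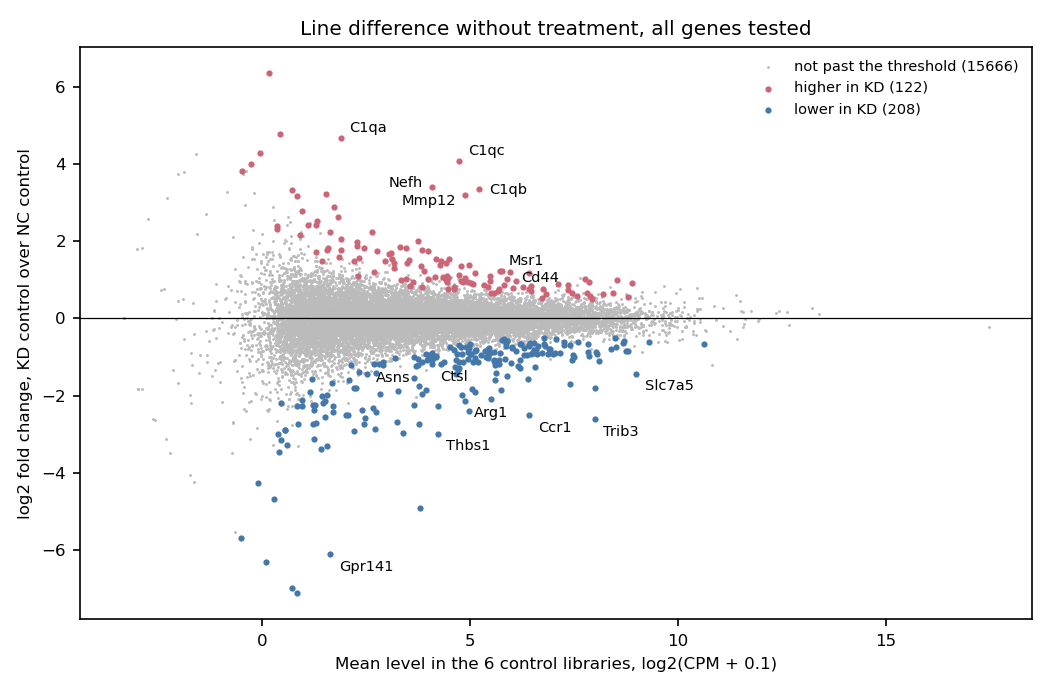
Log2 fold change of KD over NC control (vertical) against the mean level of the 6 control libraries, log2(CPM + 0.1) (horizontal), with 1 point per gene tested. The 122 genes higher in KD are red, the 208 lower are blue and the remaining 15666 grey, with 15 genes named, among them Trib3, C1qa and Gpr141.

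The list with the most calls between the untreated lines was the integrated stress response, whose called genes were all lower in KD. Of 21 listed ATF4 pathway genes 16 were tested, 11 were lower in KD, none was higher, and the median log2 fold change was -1.09, against 1.3% of all genes called lower and a median of 0.002. Every one of the 16 had a negative sign. The list was drawn up with earlier results of these libraries known, so its direction is not independent evidence.

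Trib3, a pseudokinase that is switched on by ATF4 and restrains it, was the leading member. Its level was 507, 352 and 469 CPM in NC and 78.1, 52.9 and 86.1 CPM in KD. The lowest NC library lay far above the highest KD library, and the log2 fold change was -2.62 ± 0.25 SE (adjusted p = 1.33e-06). Chac1, which breaks down glutathione, was at 58.8, 37.3 and 57.4 CPM in NC and 17.1, 11.3 and 14.98 CPM in KD. No KD library came near the NC range, with a log2 fold change of -1.83 ± 0.24 SE (adjusted p = 8.15e-05). The amino acid carrier gene Slc7a5, a light chain of the leucine transporter, was among the more abundant, at 870.0, 609.9 and 756 CPM in NC and 301, 229 and 301 CPM in KD. Every NC library lay far above every KD library, and the log2 fold change was -1.43 ± 0.20 SE (adjusted p = 0.000109). Gpt2, a mitochondrial alanine aminotransferase, was at 125, 137 and 138 CPM in NC and 55.5, 57.8 and 52.6 CPM in KD. Its difference was a log2 fold change of -1.27 ± 0.14 SE (adjusted p = 4.1e-06).

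Sesn2, a stress-induced inhibitor of the growth kinase mTORC1, was at 317, 184 and 218 CPM in NC and 124, 95.1 and 120.0 CPM in KD, with a log2 fold change of -1.08 ± 0.21 SE (adjusted p = 0.00581). Cebpg, a partner of ATF4 on DNA, was at 126, 169.9 and 169.9 CPM in NC and 82.0, 94.4 and 92.8 CPM in KD, and the log2 fold change was -0.79 ± 0.15 SE (adjusted p = 0.00437). Both were lower in every KD library than in any NC library, and the calls of these 2 genes and of Trib3, Chac1, Slc7a5 and Gpt2 held in all 6 fits that leave out a library. The other 5 called members depended on 1 or more libraries and are named although the rule for naming genes, which took the 6 lowest adjusted p-values, did not reach them. Stc2, a secreted glycoprotein, was at 17.1, 12.5 and 15.1 CPM in NC and 2.35, 3.35 and 6.45 CPM in KD, with a log2 fold change of -1.88 ± 0.38 SE (adjusted p = 0.00704), and lost the call without KD replicate 1 (adjusted p = 0.0569). Ddit4, an mTORC1 inhibitor also induced by low oxygen, was at 467, 309 and 355 CPM in NC and 203, 127 and 201 CPM in KD, with a log2 fold change of -1.09 ± 0.23 SE (adjusted p = 0.00785), and lost it without KD replicate 2 (adjusted p = 0.0557). Neither gene had overlapping libraries. Ppp1r15a, the phosphatase subunit GADD34 that restores eIF2, lost it in 3 fits (without NC replicate 2 or KD replicate 1 or 2, adjusted p up to 0.115) from a log2 fold change of -1.79 ± 0.42 SE (adjusted p = 0.0229). For Asns, asparagine synthetase, the call rested on a log2 fold change of -1.22 ± 0.29 SE (adjusted p = 0.0229) and was lost in 5 fits (all but the one without NC replicate 1, adjusted p up to 0.165). NC replicate 1 was the lowest of its group, at 9.60 CPM. Ddit3, the transcription factor CHOP, had a log2 fold change of -0.78 ± 0.19 SE (adjusted p = 0.0306) and lost the call in 5 fits (all but the one without NC replicate 3, adjusted p up to 0.148). Over the list, 7 to 10 members passed when 1 library was left out, 7 without KD replicate 1 or KD replicate 2, 6 without both libraries numbered 2, and 8 in the controls alone, where Cebpg, Asns and Ddit3 were lost (adjusted p of 0.053, 0.13 and 0.0967).

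Atf4 itself was at 125, 124 and 241 CPM in NC and 87.9, 60.1 and 88.4 CPM in KD. All KD libraries were below all NC libraries, but NC replicate 3 stood well above its group and the difference missed the threshold (log2 -1.06 ± 0.38 SE, adjusted p = 0.216). Atf4 did pass in 2 of 18 alternative settings, which changed the scaling, the filter, the libraries or the model. Its log2 fold change over the 18 ran from -1.22 to -0.67, with an adjusted p from 2.19e-05 to 0.623. Atf3, a repressor of the same family, was low in both lines with overlapping libraries (log2 -0.49 ± 0.47 SE, adjusted p = 0.779). Both were named after their values were seen.

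**Figure D2:**
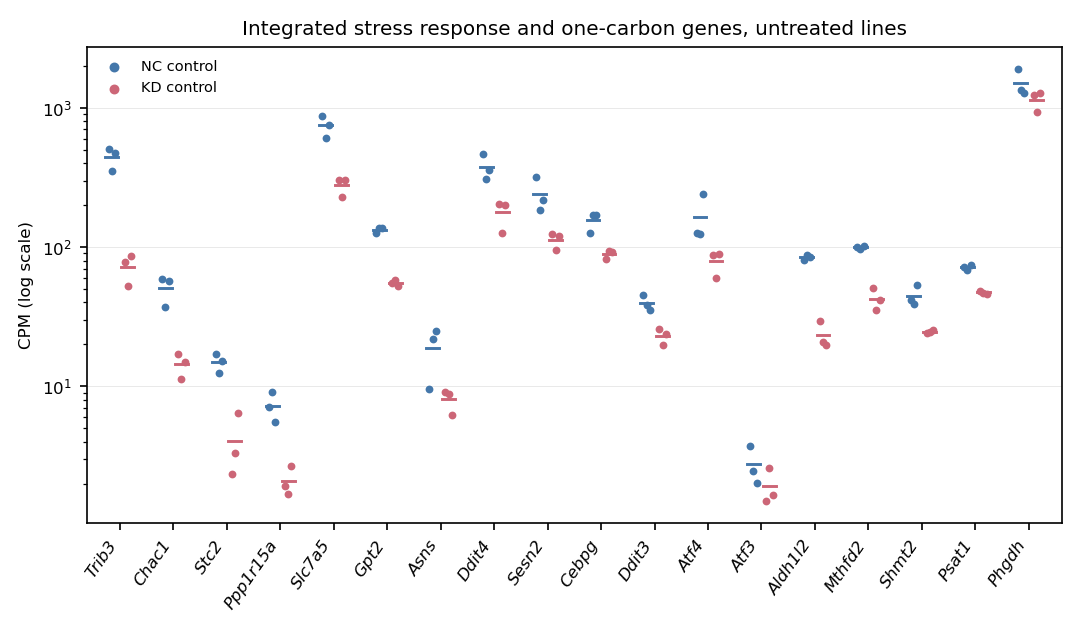
CPM on a log scale (vertical) of 13 stress response genes and 5 serine and one-carbon genes in each of the 6 control libraries, with NC in blue, KD in red and a bar at each group mean. Trib3 runs from 352 to 507 CPM in NC and from 52.9 to 86.1 in KD, while Atf3 overlaps between the lines.

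The promoters of these genes were searched for TGATGNAA, the core of the composite element that C/EBP and ATF4 proteins bind, on both strands of the 300 bases from 250 before to 50 after the RefSeq start (GRCm38.p6). It stood in 3 of 13 stress and one-carbon genes lower in KD that had a window (23.1%), in 3 of the 15 others that were tested (20.0%: Atf3, Nupr1 and Pycr1, named for this match alone), in 2.9% of 9400 genes tested with a window and in 4.0% of all 32851 windows. The share was thus close in genes of the pathway that were and were not called, and a match is a description of letters, not of binding. The windows of the 3 called genes are shown with the match in capitals: Trib3 (chr2:152344011-152344310, minus strand) has TTACATCA, the motif read on the other strand, starting at base 15 after the start, Chac1 (chr2:119350992-119351291, plus strand) has TTGCATCA at base -193, and Asns (chr6:7693160-7693459, minus strand) has TGATGAAA at base -23, each counted from the first transcribed base as 1.
Trib3: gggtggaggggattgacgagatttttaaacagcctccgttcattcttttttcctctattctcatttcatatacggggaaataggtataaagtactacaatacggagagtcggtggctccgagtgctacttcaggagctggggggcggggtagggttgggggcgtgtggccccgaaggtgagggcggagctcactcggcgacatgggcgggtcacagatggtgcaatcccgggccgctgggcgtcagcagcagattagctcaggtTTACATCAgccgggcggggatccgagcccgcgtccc
Chac1: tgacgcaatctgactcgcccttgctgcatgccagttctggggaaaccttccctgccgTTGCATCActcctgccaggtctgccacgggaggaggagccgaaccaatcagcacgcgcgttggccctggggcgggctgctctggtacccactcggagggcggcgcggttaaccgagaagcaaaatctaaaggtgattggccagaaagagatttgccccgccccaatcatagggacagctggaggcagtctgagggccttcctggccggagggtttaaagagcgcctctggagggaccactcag
Asns: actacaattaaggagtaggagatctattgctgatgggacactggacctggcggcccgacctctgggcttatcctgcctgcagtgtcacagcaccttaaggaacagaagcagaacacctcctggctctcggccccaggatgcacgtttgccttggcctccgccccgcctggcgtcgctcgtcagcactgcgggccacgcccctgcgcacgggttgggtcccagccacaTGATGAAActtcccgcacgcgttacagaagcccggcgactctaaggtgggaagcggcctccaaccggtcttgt

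Serine synthesis and mitochondrial one-carbon enzymes, which share ATF4 as a regulator, were lower in part. Of 16 tested, 4 were lower in KD, none was higher, 2 were positive in sign and the median was -0.42. Aldh1l2, a mitochondrial formyltetrahydrofolate dehydrogenase, was at 80.5, 87.9 and 84.3 CPM in NC and 29.7, 20.7 and 19.8 CPM in KD. The lowest NC library lay far above the highest KD library, with a log2 fold change of -1.85 ± 0.18 SE (adjusted p = 9.9e-07). Mthfd2, the mitochondrial methylenetetrahydrofolate dehydrogenase, was at 101, 96.6 and 101 CPM in NC and 51.0, 35.2 and 41.8 CPM in KD, and the log2 fold change was -1.22 ± 0.17 SE (adjusted p = 0.000105). Both calls held in all 6 fits that leave out a library. Shmt2, which splits serine in mitochondria, had a log2 fold change of -0.85 ± 0.21 SE (adjusted p = 0.0276) and lost the call in 4 fits (without NC replicate 3 or any KD library, adjusted p up to 0.165). Psat1, of serine synthesis, had a log2 fold change of -0.60 ± 0.15 SE (adjusted p = 0.04) and lost it in all 6 (adjusted p up to 0.152). The list held 2 calls without NC replicate 3 or any 1 KD library, and 2 in the controls alone, where Shmt2 and Psat1 were lost. Phgdh, the first enzyme of serine synthesis and the most abundant of the 5 plotted, did not pass (log2 -0.40 ± 0.19 SE, adjusted p = 0.41) and is named for contrast, after its value was seen. It passed in 1 of the 18 alternative settings.

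Other stress lists held few calls. Among 20 tested genes of endoplasmic reticulum chaperones and the unfolded protein response, 2 were lower, 1 was higher and the median was 0.07. Ern1, the sensor kinase IRE1, was at 83.9, 83.3 and 95.6 CPM in NC and 44.6, 36.4 and 37.7 CPM in KD. It was lower in every KD library, with a log2 fold change of -1.15 ± 0.15 SE (adjusted p = 8.25e-05), in all 6 fits without a library. Atf6, another sensor of that compartment, had a log2 fold change of -0.63 ± 0.14 SE (adjusted p = 0.0134) and lost the call without KD replicate 1 or 3 (adjusted p up to 0.0579). Dnajc3, a co-chaperone, was higher, with a log2 fold change of 0.53 ± 0.13 SE (adjusted p = 0.0327), a call lost in all 6 fits (adjusted p up to 0.143). Atf6 and Dnajc3 were lost in the controls alone. Of 21 NRF2 targets tested, 1 was lower, the cystine transporter gene Slc7a11, which ATF4 also controls (log2 -0.88 ± 0.22 SE, adjusted p = 0.0326, lost in 4 fits, without NC replicate 2 or 3 or KD replicate 1 or 3, with an adjusted p up to 0.197, and in the controls alone). None of 13 heat shock chaperones passed in edgeR or in DESeq2, and none had an unadjusted p under 0.05.

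Of 20 listed homeostatic genes, those of the resting microglial state, 13 were tested. Among these, 4 were higher in KD, against 0.763% of all genes tested, and none was lower. All 13 were positive in sign and the median was 0.49. The listed P2ry12, Sall1, Siglech, Gpr34, Olfml3 and Slc2a5 had only 0 to 6 counts per control library. All 3 chains of complement C1q were among the 4, with the receptor kinase gene Mertk, whose product binds dying cells for engulfment. The count was 4 to 6 when a library was left out.

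The C1q genes lie side by side on chromosome 4 (C1qb chr4:136880129-136886187, C1qc chr4:136889804-136893065 and C1qa chr4:136895917-136898803, all minus strand). C1qc was at 4.80, 1.32 and 3.06 CPM in NC and 56.6, 47.9 and 46.8 CPM in KD. The lowest KD library was many times the highest NC library, and the log2 fold change was 4.07 ± 0.33 SE (adjusted p = 2.58e-07). C1qb was at 8.35, 5.61 and 6.13 CPM in NC and 73.0, 42.8 and 87.4 CPM in KD, with a log2 fold change of 3.34 ± 0.33 SE (adjusted p = 1.72e-06). C1qa, the scarcest of the 3, had 0, 2 and 2 counts in NC and 47, 39 and 25 in KD. Its fitted difference, a log2 fold change of 4.67 ± 0.77 SE (adjusted p = 0.00197), rests on 4 counts in NC and is uncertain in size. In the treated groups the mean of C1qa was at most 0.335 CPM. It thus passed the filter on low counts through the group where it is high, and its call and sign are not independent evidence. Mertk was at 34.8, 28.2 and 21.6 CPM in NC and 69.8, 55.3 and 56.2 CPM in KD. Its lowest KD library lay above its highest NC library, with a log2 fold change of 1.10 ± 0.21 SE (adjusted p = 0.00468). None of these 4 calls was lost when a library was left out.

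Tmem119, a marker of brain microglia with 17 to 95 counts per control library, was at 7.09, 5.44 and 3.47 CPM in NC and 10.2, 8.995 and 19.8 CPM in KD. Its lowest KD library lay above its highest NC library, but the difference missed the threshold (log2 1.27 ± 0.35 SE, adjusted p = 0.0619). It passed in 7 of the 18 alternative settings.

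Of 12 tested scavenger and engulfment receptors, 2 were higher (Mertk and Msr1), none was lower and the median was 0.05. Msr1, the class A scavenger receptor, was at 27.1, 35.6 and 32.1 CPM in NC and 68.3, 84.6 and 69.5 CPM in KD, and the log2 fold change was 1.23 ± 0.15 SE (adjusted p = 3.28e-05), in all 6 fits without a library. Mrc1, the mannose receptor, belongs to the list of alternative activation and was at 7.72, 8.91 and 11.2 CPM in NC and 26.5, 23.02 and 31.0 CPM in KD. Its call (log2 1.53 ± 0.36 SE, adjusted p = 0.0229) was lost in 5 of the 6 fits (all but the one without KD replicate 2, adjusted p up to 0.108). On that list of 8 tested genes Mrc1 and Msr1 were higher (Msr1 alone in 5 of the 6 fits), while Arg1, the arginase that marks the same state, was lower. Arg1 was at 45.9, 50.1 and 47.8 CPM in NC and 8.75, 8.23 and 16.02 CPM in KD. The NC libraries lay close together and KD replicate 3 stood above the other KD libraries but far below NC, with a log2 fold change of -2.13 ± 0.30 SE (adjusted p = 0.00013), in all 6 fits. Members of that list therefore differed in opposite directions.

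Of 20 tested matrix and adhesion genes, 4 were higher (Mmp12, Mmp8, Mmp13 and Cd44), 2 lower (Thbs1 and Plau) and the median was 0.16. Mmp12, the macrophage elastase, was at 4.80, 6.76 and 5.51 CPM in NC and 29.9, 65.3 and 63.2 CPM in KD. The lowest KD library, replicate 1, was still far above the highest in NC, and the log2 fold change was 3.20 ± 0.28 SE (adjusted p = 3.15e-07). Mmp8, a collagenase, was low in both lines at 0.417, 0.660 and 2.04 CPM in NC and 6.19, 3.66 and 4.99 CPM in KD, with a log2 fold change of 2.23 ± 0.43 SE (adjusted p = 0.00477). Both calls held in all 6 fits, and the genes lie on one stretch of chromosome 9 with Mmp13 (Mmp13 at chr9:7272514-7283331, Mmp12 at chr9:7344381-7369499 and Mmp8 at chr9:7558456-7568485). Mmp13, another collagenase, and Cd44, the hyaluronan receptor, had a log2 fold change of 1.08 ± 0.27 SE (adjusted p = 0.035) and a log2 fold change of 0.79 ± 0.20 SE (adjusted p = 0.033). Their calls were lost in 5 of 6 fits each (Mmp13 in all but the one without NC replicate 2, adjusted p up to 0.142, and Cd44 in all but the one without KD replicate 1, adjusted p up to 0.184). The higher count was 2 without NC replicate 1, NC replicate 3, KD replicate 2 or KD replicate 3, and 1 in the controls alone, where Mmp8 (adjusted p = 0.0717), Mmp13 and Cd44 were lost.

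The 2 matrix genes on the other side were lower in all 6 fits. Thbs1, thrombospondin 1, an adhesive glycoprotein that also activates latent TGF-beta, was at 41.3, 28.4 and 29.6 CPM in NC and 5.55, 3.81 and 3.12 CPM in KD. The highest KD library lay far below the lowest NC library, and the log2 fold change was -2.99 ± 0.26 SE (adjusted p = 2.74e-07). Plau, the urokinase plasminogen activator, was at 253, 235 and 239.5 CPM in NC and 113, 110.4 and 139 CPM in KD, with a log2 fold change of -1.01 ± 0.15 SE (adjusted p = 0.00023).

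Receptors for attractants and nucleotides differed in both directions: of 16 tested, 3 were higher, 3 lower and the median was 0.37. C3ar1, the receptor for the complement fragment C3a, was at 247, 244 and 259.5 CPM in NC and 457, 518 and 518 CPM in KD. Its libraries were tight in both lines, with a log2 fold change of 0.99 ± 0.16 SE (adjusted p = 0.00108). P2ry6, a receptor for UDP tied to engulfment by microglia, was at 53.6, 28.9 and 32.1 CPM in NC and 94.6, 78.5 and 88.6 CPM in KD, and the log2 fold change was 1.19 ± 0.23 SE (adjusted p = 0.00524). These 2 calls held in all 6 fits. Ltb4r1, the leukotriene B4 receptor, had 1 count in NC and 20 in KD, a rate ratio of 20.2 (exact 95% interval 3.24 to 839), and its call was lost without NC replicate 2, NC replicate 3 or KD replicate 2 (adjusted p up to 0.0856).

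Of the lower receptors Ccr1, a receptor for inflammatory chemokines, was at 132, 127 and 181 CPM in NC and 24.5, 22.9 and 30.4 CPM in KD. No KD library came near the NC range, with a log2 fold change of -2.50 ± 0.27 SE (adjusted p = 8.96e-06). The call held in all 6 fits. Adora2b, an adenosine receptor, had a log2 fold change of -0.94 ± 0.23 SE (adjusted p = 0.0272) and lost the call in 4 fits (without NC replicate 3 or any KD library, adjusted p up to 0.178) and in the controls alone, where the list held 2 higher calls and 1 lower and Ltb4r1 did not pass the filter on low counts.

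Of 21 tested cytokines, chemokines and mediators, 3 were lower in KD, none was higher, the median was -0.31 and 4 were positive in sign. Ptgs2, cyclooxygenase 2, was at 52.4, 78.8 and 63.5 CPM in NC and 30.5, 34.9 and 26.8 CPM in KD, with a log2 fold change of -1.08 ± 0.17 SE (adjusted p = 0.000852). Ccl7, a monocyte chemokine, was at 36.9, 48.5 and 53.9 CPM in NC and 17.3, 20.4 and 25.6 CPM in KD, and the log2 fold change was -1.14 ± 0.20 SE (adjusted p = 0.00156). Osm, oncostatin M, was at 123, 79.2 and 106 CPM in NC and 47.2, 48.6 and 64.1 CPM in KD, with a log2 fold change of -0.95 ± 0.18 SE (adjusted p = 0.00461). For these 3 genes no KD library reached an NC library, and the calls held in all 6 fits. Related lists had few calls. None of 19 NF-kB pathway genes passed in edgeR or DESeq2 (2 at an unadjusted p under 0.05, neither higher). Of 19 Toll-like receptor and adaptor genes only the adaptor Ticam2 did (log2 -0.72 ± 0.17 SE, adjusted p = 0.0229), a call lost without NC replicate 3 or any 1 KD library (adjusted p up to 0.136) and in the controls alone, and 14.5% of its exon bases are shared with Tmed7. Tnfaip3, an inhibitor of NF-kB, was lower in every KD library but did not pass (log2 -0.84 ± 0.25 SE, adjusted p = 0.101), except in 1 of the 18 alternative settings.

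Among 17 tested immediate early genes, which growth factors and stress switch on within minutes, 2 were lower and none higher, with a median of -0.37. Fos, a subunit of the transcription factor AP-1, was at 70.9, 71.4 and 77.8 CPM in NC and 16.01, 12.2 and 24.1 CPM in KD. The NC libraries lay close together and the KD libraries far below them, and the log2 fold change was -2.08 ± 0.23 SE (adjusted p = 5.18e-06), in all 6 fits. Dusp5, a phosphatase that switches off ERK kinases, had a log2 fold change of -0.95 ± 0.23 SE (adjusted p = 0.0233), lost in 4 fits (without NC replicate 1 or 3 or KD replicate 2 or 3, adjusted p up to 0.117) and in the controls alone, and shares 22.1% of its exon bases with an antisense gene. The sources used here do not give the strand setting of the authors' counting. Aldh1l2, Gadd45a, Angptl6, Cox6a2 and Bnip3, named above or below, share 10.3 to 22.3% of their exon bases with a gene on the other strand.

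Of 34 tested interferon-stimulated genes, 5 were higher in KD, 1 lower, 31 positive in sign and the median was 0.36. Ifit1, which binds foreign RNA, was at 12.9, 14.7 and 18.8 CPM in NC and 41.8, 38.7 and 38.5 CPM in KD, and the log2 fold change was 1.36 ± 0.20 SE (adjusted p = 0.000311). Its neighbour Ifit3 (chr19:34583531-34588731) was at 14.4, 13.2 and 17.2 CPM in NC and 31.6, 26.4 and 28.5 CPM in KD, with a log2 fold change of 0.95 ± 0.21 SE (adjusted p = 0.0139). The NC and KD ranges of both were apart, but the call of Ifit3 was lost without NC replicate 2 or KD replicate 1 (adjusted p up to 0.0737). Parp14, a mono-ADP-ribosyltransferase, Oasl2, of the oligoadenylate synthetase family, and Xaf1, a pro-apoptotic factor, had log2 fold changes of 0.66 ± 0.13, 0.93 ± 0.19 and 0.90 ± 0.18 (SE; adjusted p = 0.00678, 0.00777 and 0.00726), of which only Xaf1 lost the call, without KD replicate 2 (adjusted p = 0.0587). The exception was Ifi27, lower at a log2 fold change of -1.17 ± 0.29 SE (adjusted p = 0.0328), a call lost in 5 fits (all but the one without NC replicate 2, adjusted p up to 0.139). Without both libraries numbered 2, 1 gene of the list was higher past the threshold, and in the controls alone 2 were, with Ifit3, Xaf1 and Parp14 lost (adjusted p of 0.053, 0.053 and 0.07). None of 14 genes of antigen presentation passed in edgeR (3 at an unadjusted p under 0.05, and 1 in DESeq2, B2m, for which edgeR gave log2 0.65 ± 0.18 SE, adjusted p = 0.0623).

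**Figure D3:**
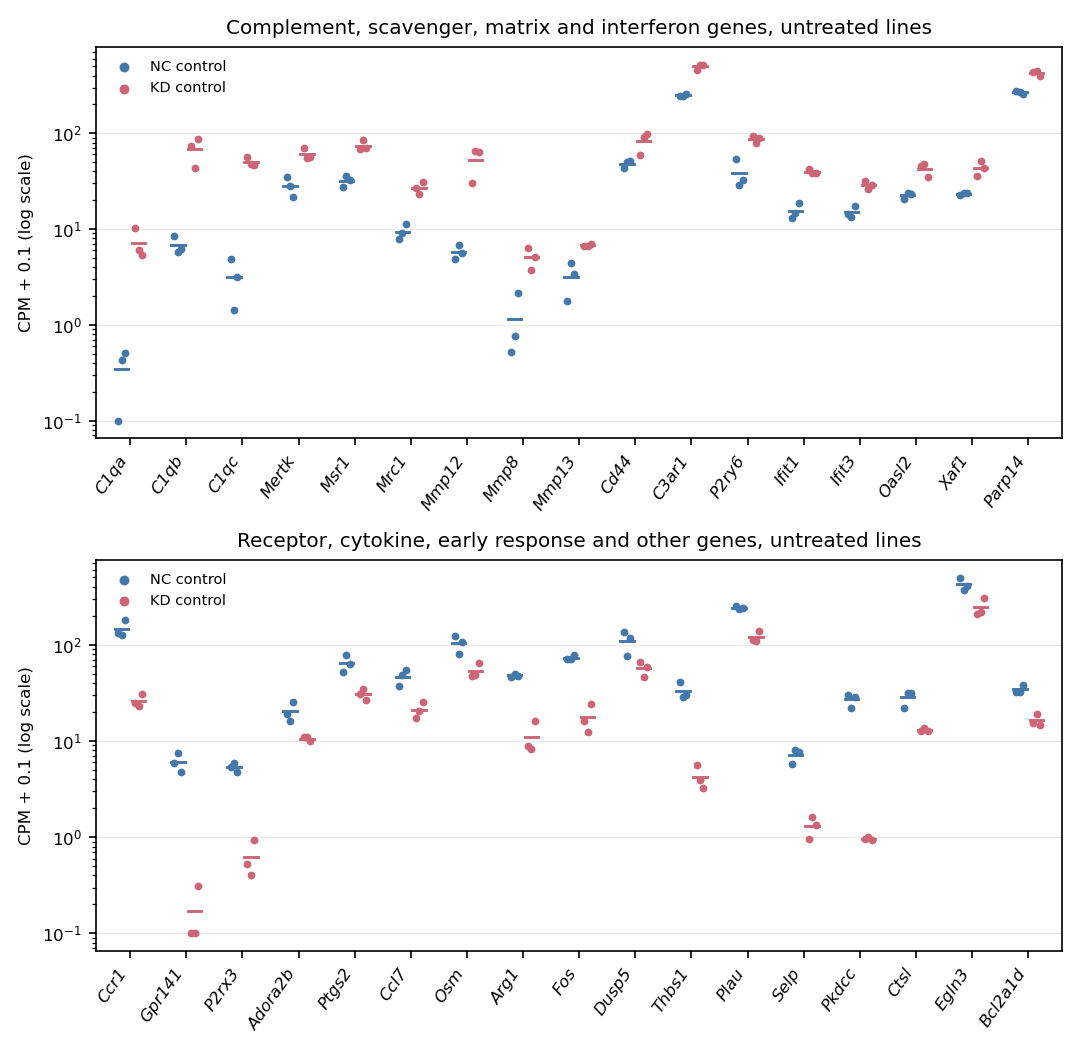
CPM + 0.1 on a log scale (vertical) in each of the 6 control libraries for genes of complement, scavenging, matrix and interferon response (upper panel) and receptor, cytokine, early response and other genes (lower panel). NC libraries are blue, KD libraries red and bars are group means. C1qc lies between 1.32 and 4.80 CPM in NC and between 46.8 and 56.6 in KD, and Ccr1 between 127 and 181 in NC and between 22.9 and 30.4 in KD.

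Single genes were also ranked by the size of their difference, inside and outside these lists. Among genes of at least 5 CPM in the higher line, the 15 largest differences upward ran from Asb2 to C1qa (log2 fold changes of 1.83 and 4.67). C1qa had passed the filter on low counts through the KD control libraries alone. Besides the C1q genes and Mmp12 the 15 held Nefh, a heavy neurofilament chain known from neurons, at 2.504, 2.47 and 3.68 CPM in NC and 33.3, 27.4 and 31.4 CPM in KD. The lines were far apart, with a log2 fold change of 3.41 ± 0.29 SE (adjusted p = 2.58e-07). The neuronal adhesion molecule gene L1cam was low in both lines, at 2.504, 1.48 and 2.45 CPM in NC and 13.02, 10.5 and 6.87 CPM in KD, with a log2 fold change of 2.25 ± 0.32 SE (adjusted p = 0.000191). Beside these, the 10 neuron markers summed to 9.39 to 10.39 CPM in NC and 11.74 to 13.73 in KD, with 6 of them, among them Snap25, Syt1, Rbfox3 and Stmn2, at 0 in all control libraries. Cd300e, an activating receptor of monocytes, Tns4, an adhesion adaptor, and Cyp11a1, the enzyme that begins steroid synthesis, were at 0 to 1.88 CPM in NC and at 3.05 to 7.49 CPM in KD (log2 fold changes of 2.88, 3.22 and 2.62). These calls held in all 6 fits. Of the other 6, Asb2 and Gm45777 held too, while Slfn5, Ckb, Jam3 and A130077B15Rik (log2 fold changes of 2.07, 1.85, 1.87 and 1.98) each lost the call in 1 to 4 fits (Slfn5 without NC replicate 2 or 3 or KD replicate 2, Ckb without NC replicate 2 or KD replicate 1, Jam3 without NC replicate 1, A130077B15Rik without NC replicate 1 or 2 or KD replicate 1 or 2, adjusted p up to 0.111). Cyp11a1 and A130077B15Rik were lost in the controls alone (adjusted p of 0.0662 and 0.0551). Jam3 shares 36.2% of its exon bases with a gene on the other strand.

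The 15 largest downward differences ran from Selp to Gpr141 (log2 fold changes of -2.49 and -6.11). Gpr141, an orphan receptor of myeloid cells, had 96 counts in the NC libraries and 1 in KD, a rate in NC 95.2 times that in KD (exact 95% interval 16.6 to 3790). Pkdcc, a secreted tyrosine kinase, was at 30.0, 21.9 and 28.8 CPM in NC and 0.854, 0.915 and 0.832 CPM in KD. All KD libraries were under 1 CPM, and the log2 fold change was -4.91 ± 0.42 SE (adjusted p = 2.58e-07). P2rx3, an ATP-gated channel best known from sensory neurons, was at 5.22, 5.77 and 4.70 CPM in NC and 0.427, 0.305 and 0.832 CPM in KD, with a log2 fold change of -3.31 ± 0.65 SE (adjusted p = 0.00572). Cox6a2, a muscle form of a cytochrome oxidase subunit, was at 21.1, 21.3 and 13.1 CPM in NC and 2.35, 1.98 and 2.70 CPM in KD, with a log2 fold change of -2.98 ± 0.31 SE (adjusted p = 3.04e-06). Tln2, the adaptor talin 2, and Selp, P-selectin, were lower by 2.58 and 2.49 on the log2 scale. The rest of the 15 were Thbs1, Trib3 and Ccr1, described above, Pcdhb16, Angptl6, 3 noncoding RNAs (Gm16587, Gm38575 and Trp53cor1) and the pseudogene Gm8873. Of all 15, only Gm8873 lost the call when a library was left out (without NC replicate 1 or 3 or KD replicate 2 or 3, adjusted p up to 0.124). Gm16587 lies antisense within Selp and shares 21.6% of its exon bases with it, and Trp53cor1 shares 44.1% with a gene on the other strand, so their reads cannot be assigned without strand.

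Some of the called genes were neighbours. Of 327 with a position, 63 fell into 27 runs in which each gene lay within 100000 bases of the next, and in 24 of the runs all genes differed in one direction. No share for genes in general was worked out, and 208 of the 330 calls were lower. Some runs hold a gene annotated within another, such as Gm37297 in Agap1, Gm43890 in Mthfd2 and Gm47268 in Aqp9. Reads of such genes may be shared, so these runs need not be separate genes that changed together. The longest run of one direction was in the protocadherin beta cluster, whose genes encode adhesion molecules that give neurons distinct surface identities. Pcdhb16, Pcdhb17, Pcdhb19 and Pcdhb20 lie close together on chromosome 18 and all were lower in KD. Runs join called genes only, so genes that were not called may lie between them. Of 8 clustered protocadherins tested, 5 were lower, none was positive in sign and the median was -2.27. Pcdhb16 was at 7.93, 7.42 and 8.98 CPM in NC and 1.07, 1.22 and 0.832 CPM in KD, with a log2 fold change of -2.92 ± 0.40 SE (adjusted p = 0.000109), in all 6 fits. The others were scarcer: Pcdhb20 had 35 counts in NC and 1 in KD, a rate in NC 34.6 times that in KD (exact 95% interval 5.81 to 1400). The calls of Pcdhb17, Pcdhb19, Pcdhb20 and Pcdhac2 were each lost in 2 to 4 fits (adjusted p up to 0.129), and 2 members of the list passed without KD replicate 1 and 2 in the controls alone. Pcdhac2 shares 48.6% of its exon bases with the other alpha genes, so its level (log2 -0.82 ± 0.19 SE, adjusted p = 0.0241) is uncertain.

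Another run on chromosome 12 held Asb2, a ubiquitin ligase subunit, an antisense RNA within it (Gm15523, log2 fold change 1.70), the pseudogene Gm45777 (2.00) and Ifi27l2a (0.94), all higher, with Ifi27 lower between them (-1.17). Asb2 was at 5.43, 4.12 and 4.90 CPM in NC and 17.5, 18.6 and 15.2 CPM in KD, with a log2 fold change of 1.83 ± 0.27 SE (adjusted p = 0.00031). On chromosome 1, Selp, Gm16587 and F5, coagulation factor V, had log2 fold changes of -2.49, -2.87 and -0.99. Gm15523, Ifi27l2a and F5 were named for their position after their values were seen.

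Of 23 tested glycolysis and hypoxia genes 3 were lower (Egln3, Vegfa and Pfkp), 3 were positive in sign and the median was -0.26. Egln3, a prolyl hydroxylase that marks hypoxia-inducible factors for decay, was at 498, 372 and 405 CPM in NC and 209.8, 221 and 303 CPM in KD, with a log2 fold change of -0.80 ± 0.17 SE (adjusted p = 0.0118). Vegfa, the vascular growth factor, and Pfkp, a phosphofructokinase, had a log2 fold change of -1.22 ± 0.30 SE (adjusted p = 0.0311) and a log2 fold change of -0.50 ± 0.13 SE (adjusted p = 0.0419). None of the 3 calls stood without NC replicate 1, without KD replicate 2 or in the controls alone.

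Of 25 tested DNA replication genes 3 were higher (Cdc6, Pcna and Mcm4), 20 were positive in sign and the median was 0.24. Pcna, the sliding clamp of DNA polymerases, was at 272, 210.1 and 213 CPM in NC and 356, 328 and 398 CPM in KD, with a log2 fold change of 0.64 ± 0.15 SE (adjusted p = 0.0234). Cdc6, which loads the replicative helicase, and Mcm4, a part of that helicase, had a log2 fold change of 1.78 ± 0.39 SE (adjusted p = 0.0142) and a log2 fold change of 0.58 ± 0.15 SE (adjusted p = 0.0446). None of the 3 calls stood without NC replicate 3 or without KD replicate 3, and Pcna and Mcm4 were lost in the controls alone. Among 22 genes of mitosis none passed in edgeR or DESeq2 (3 at an unadjusted p under 0.05, all higher in KD), although their summed level, 2268 to 2981 CPM in NC and 3454 to 3775 in KD, did not overlap. Mki67, the proliferation marker, was at 992, 846 and 528 CPM in NC and 1346, 1424 and 1263 CPM in KD, with a log2 fold change of 0.77 ± 0.24 SE (adjusted p = 0.124). It passed in 2 of the 18 alternative settings. Of 23 cholesterol genes 2 were higher, Stard4, a sterol carrier, and Cyp51, a demethylase of sterol synthesis (log2 0.75 ± 0.17 SE, adjusted p = 0.0139 and log2 0.76 ± 0.18 SE, adjusted p = 0.0226), with a median of 0.32, and neither call stood without NC replicate 2, without KD replicate 3 or in the controls alone.

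Smaller lists held 1 to 3 calls each. List counts also rose in some of the 18 alternative settings. Over these, lower calls ran from 0 to 7 for glycolysis and hypoxia and from 1 to 7 for immediate early genes. For serine and one-carbon enzymes they ran from 2 to 7. Higher calls ran from 0 to 7 for cholesterol genes and from 0 to 6 for both DNA replication and myeloid genes. Atp6v0d2, a subunit of the acidifying proton pump, was at 92.7, 94.7 and 72.9 CPM in NC and 28.8, 30.8 and 33.1 CPM in KD, with a log2 fold change of -1.49 ± 0.20 SE (adjusted p = 7.34e-05), in all 6 fits. With Ctsl, cathepsin L (log2 -1.13 ± 0.24 SE, adjusted p = 0.0118, lost without NC replicate 2 or 3 or KD replicate 1 or 3 with an adjusted p up to 0.0586, and with 26.8% of its exon bases shared with a gene on the other strand), it made up the 2 lower calls among 26 lysosomal genes, whose median was 0.08. Ctsl was also the only edgeR call among 19 disease-associated microglia genes, of which DESeq2 called 2. Of 14 tested p53 targets 3 were lower: Sesn2, Gadd45a, a growth arrest gene (log2 -1.40 ± 0.26 SE, adjusted p = 0.00382, in all 6 fits but not in the controls alone, adjusted p = 0.0637), and Rrm2b, a ribonucleotide reductase subunit (log2 -0.70 ± 0.18 SE, adjusted p = 0.0486, lost in all 6 with an adjusted p up to 0.192). Runx1, a transcription factor of blood cells, was the 1 call among 22 myeloid genes (log2 0.65 ± 0.16 SE, adjusted p = 0.0294, lost in all fits but the one without KD replicate 3, adjusted p up to 0.124). Hp, haptoglobin, was the 1 call among 23 genes of heme and iron handling (log2 -1.21 ± 0.30 SE, adjusted p = 0.0312), and Elovl5, a fatty acid elongase, the 1 call among 16 fatty acid genes (log2 -0.70 ± 0.18 SE, adjusted p = 0.0356). Hp lost the call in all 6 fits (adjusted p up to 0.124) and Elovl5 in all but the one without KD replicate 2 (adjusted p up to 0.192). Rrm2b, Runx1, Hp and Elovl5 were also lost in the controls alone. Cytosolic ribosomal proteins (24 tested), nuclear subunits of the respiratory chain (25) and mitochondrially encoded genes (9) had no call in edgeR or DESeq2, with 0, 0 and 1 at an unadjusted p under 0.05. Replication-dependent histones (24) had none in edgeR, 3 at an unadjusted p under 0.05 and 1, H4c9, in DESeq2.

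**Figure D4:**
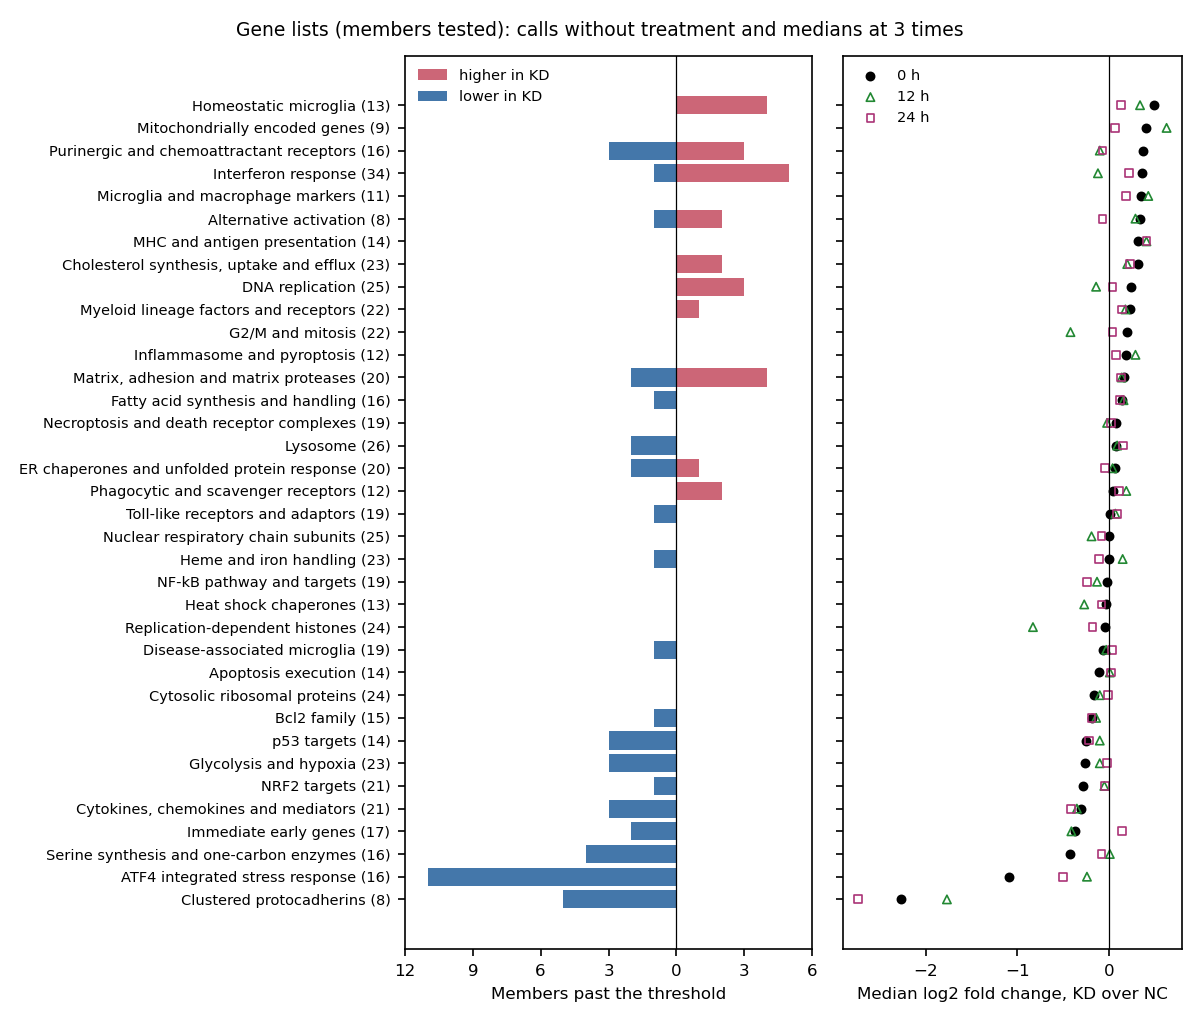
For each list with at least 8 tested members (number in brackets), the members past the threshold between the untreated lines, higher in KD to the right in red and lower to the left in blue (left panel), and the median log2 fold change of KD over NC at 0, 12 and 24 h (right panel). The ATF4 list has 11 lower members and a median of -1.09 at 0 h, -0.24 at 12 h and -0.50 at 24 h.

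Cell death genes, the setting in which Bak1 is studied, held few calls. Of 15 tested Bcl2 family genes 1 was lower in edgeR (2 were called by DESeq2), 3 were positive in sign and the median was -0.18. The call was Bcl2a1d, an anti-apoptotic member induced in activated myeloid cells, which was at 31.9, 32.5 and 38.2 CPM in NC and 15.4, 18.8 and 14.6 CPM in KD. Its libraries were apart, with a log2 fold change of -1.07 ± 0.21 SE (adjusted p = 0.00522), in all 6 fits, but Bcl2a1 genes are near-identical copies and their reads may be split between them. Bcl2l11, the BH3-only protein BIM, was next (log2 -0.49 ± 0.14 SE, adjusted p = 0.074), lower in each KD library than in any NC library and past the threshold at 12 h (log2 fold change -0.76, adjusted p = 0.00539), followed by Bnip3 (log2 -0.81 ± 0.34 SE, adjusted p = 0.318). Without treatment Bcl2l11 passed in 3 and Bnip3 in 1 of the 18 alternative settings. Bax, the partner of BAK, was at 64.5, 33.0 and 35.5 CPM in NC and 59.6, 31.3 and 51.6 CPM in KD. Its libraries overlapped (log2 0.10 ± 0.28 SE, adjusted p = 0.947), and its sign turned without NC replicate 2, NC replicate 3 or KD replicate 1. The survival genes Mcl1, Bcl2 and Bcl2l1 had log2 fold changes of -0.23, -0.18 and -0.12 (adjusted p = 0.625, 0.732 and 0.876).

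None of 19 necroptosis and death receptor genes passed in edgeR or DESeq2 (2 at an unadjusted p under 0.05), and the median was 0.08. Ripk3, the kinase that drives necroptosis, and Zbp1, a sensor that can engage it, had no count in any control library. Mlkl, the executioner of necroptosis, was low at 0.626, 2.31 and 2.04 CPM in NC and 2.35, 2.74 and 1.46 CPM in KD, with overlapping libraries and a log2 fold change of 0.38 ± 0.47 SE (adjusted p = 0.844). Ripk1 and Casp8, which act upstream, had a log2 fold change of 0.14 ± 0.17 SE (adjusted p = 0.841) and a log2 fold change of 0.59 ± 0.33 SE (adjusted p = 0.507). None of 14 genes of apoptosis execution passed by either tool (1 at an unadjusted p under 0.05), nor any of 12 of the inflammasome (0 at an unadjusted p under 0.05).

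The same contrast was then looked at in the treated libraries, which share no library with the control comparison but share the estimate of spread. At 12 h 256 genes passed between the lines (1.6% of those tested) and at 24 h 223 (1.39%). With the library number as a block, used here because same-numbered libraries deviated together at 12 h (correlations of 0.2 to 0.438 with no mark of pairing in the labels), the 12 h count was 1737. Leaving out 1 library gave 101 to 271 calls at 12 h, over 1.5 times fewer than 256 without any library but NC replicate 2 (NC replicate 1 102, NC replicate 3 101, KD replicates 1 to 3 166, 109 and 119). At 24 h it gave 41 to 131, over 1.5 times fewer without any of the 6 (NC 121, 97 and 131 without replicates 1 to 3, KD 69, 90 and 41). Of the 122 untreated calls higher in KD, 110 kept the sign at 12 h and 109 at 24 h, and 37 and 25 passed in the same direction. Of the 208 lower, 191 and 195 kept the sign, and 60 at each time passed in the same direction. None passed in the opposite direction in edgeR (3 and 2 at an unadjusted p under 0.05, and 1 and 0 in DESeq2). The shared calls were 29.4% of the untreated and 37.9% of the 12 h calls, and 25.8% of the untreated and 38.1% of the 24 h calls, with 57 genes called at all 3 times. The median of the higher calls went from 1.21 to 0.59 at 12 h and 0.68 at 24 h and that of the lower from -1.13 to -0.60 and -0.65, a comparison in which genes were chosen at 0 h for their size.

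Genes with a difference at each time included Nefh (log2 fold changes of 2.62 at 12 h and 2.84 at 24 h), Pkdcc (-3.05 and -4.26), Thbs1 (-1.82 and -1.77), Fos (-2.37 and -1.41), Msr1 (1.10 and 0.59) and L1cam (1.80 and 1.74). C1qc also passed at each time, while its mean was lower at the later times in both lines. In KD it was 50.4 ± 5.4 CPM (SD, n = 3) at 0 h, 10.9 ± 0.87 at 12 h and 1.97 ± 0.32 at 24 h. In NC it was 3.06 ± 1.7, 1.17 ± 0.43 and 0.294 ± 0.26. C1qa was at or near 0 in both lines at 12 h and 24 h, so no difference could be read there.

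Of the 16 stress response genes tested, 1 was lower at 12 h (Ddit4) and none at 24 h (8 at an unadjusted p under 0.05 and 2 in DESeq2), with medians of -0.24 and -0.50. Trib3 was at 443 ± 81 CPM (SD, n = 3) in NC and 72.4 ± 17 in KD at 0 h, at 427 ± 110 and 346 ± 79 at 12 h, and at 253 ± 67 and 164 ± 26 at 24 h. The lines were far apart at 0 h, while at 12 h and 24 h their difference missed the threshold (adjusted p = 0.657 and 0.244). A joint test of whether the line difference changed by 12 h or by 24 h passed for 10 genes (0.0625% of those tested), of which Trib3, Aldh1l2 and Gpt2 are on the stress and one-carbon lists. When each of the 18 libraries was left out in turn, the number was 4 to 12, and Trib3 and Aldh1l2 passed in 18 of 18 fits and Gpt2 in 3. The count depended on the fit: it was 415 with the library number as a block, 71 in DESeq2 and 66 without a filter on low counts. Of 32 tested stress and one-carbon genes 11 passed with the block and 6 in DESeq2, among them Trib3, Aldh1l2 and Gpt2 in both. Chac1 and Mthfd2, which missed the threshold without the block (adjusted p = 0.103 and 0.0969), passed with it (2.36e-07 and 2.21e-05) and in DESeq2 (0.00295 and 0.000763). Asns passed with the block alone (adjusted p = 0.00515, against 0.374 without it and 0.0905 in DESeq2).

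**Figure D5:**
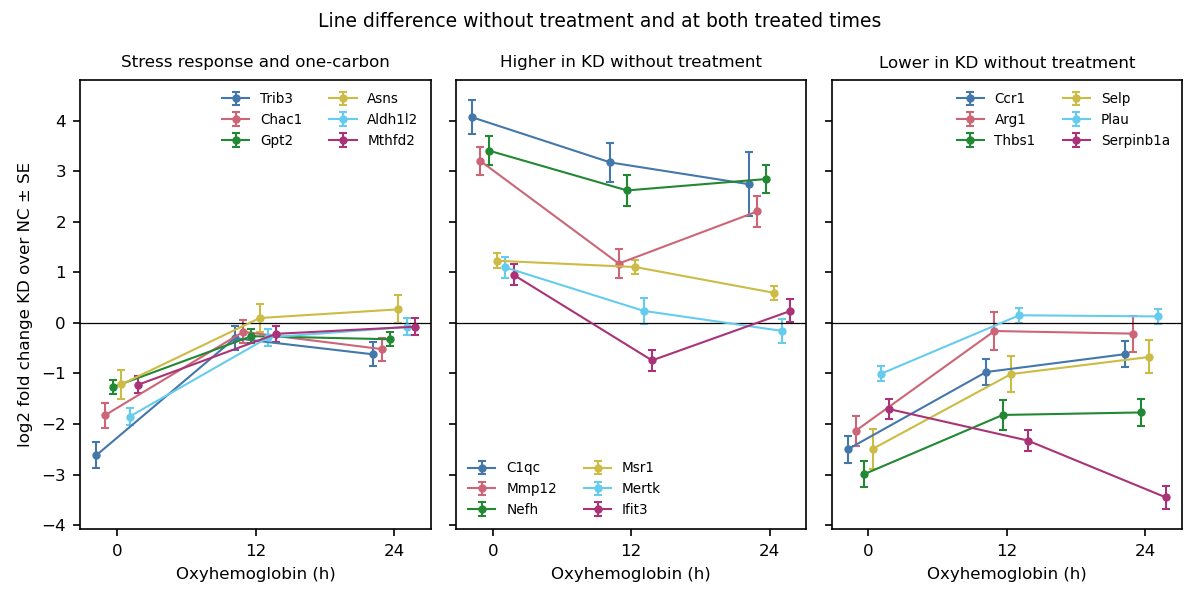
Log2 fold change of KD over NC with SE (vertical) at 0, 12 and 24 h of oxyhemoglobin (horizontal; points are offset sideways for legibility) for 6 stress and one-carbon genes, 6 genes higher in KD at 0 h and 6 lower. Trib3 moves from -2.62 to -0.30 and -0.62, Nefh stays between 2.62 and 3.41, and Serpinb1a, chosen after its values were seen, moves from -1.70 to -3.45.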

How the data were processed

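Gene expression in 18 BV2 libraries was deposited as 2 tables of 55487 genes. Per the file headers, one holds raw read counts per gene that the authors deposited and the other their TPM values. TPM recomputed from the deposited counts and gene lengths differed from the authors' TPM by rounding alone. Per the submitters' processing notes, tools included bcl2fastq, HISAT2 2.2.0, featureCounts and DESeq2, with build GRCm38 and a strand setting not given in these sources.

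Counts were tested with edgeR 4.0.16 in R 4.3.3 by the quasi-likelihood F test: TMM factors, a filter of at least 10 counts (filterByExpr, 15996 genes, 99.65% of counts), all 18 libraries with 1 mean for each of 6 groups, and Benjamini-Hochberg adjustment over all genes at 0.05. The standard error is the log2 fold change over the square root of F. TPM values were tested with limma 3.58.1 and counts also with DESeq2 1.42.0 as alternatives. Other alternatives changed the scaling, the filter, the libraries and the replicate block. At 12 h same-numbered libraries deviated together in every pair, a pairing that comes from the data and not from the labels. No control library was a copy of another of its group (chi-square per degree of freedom 5.67 to 18.5).

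Named were the Bcl2 family and a cell death panel, the 15 largest called differences in each direction with at least 5 CPM in the higher line, up to 6 called genes per list with the lowest adjusted p (where none passed, up to 2), and genes within 500000 bases of Bak1. Genes outside the rule are marked in the text, and a few genes are not reported here. The 42 lists, of 818 genes with 631 tested, and the rule were chosen with earlier results of these data known. Positions are from GENCODE M21 and promoters from RefSeq GRCm38.p6. Neighbouring calls and the promoter motif were looked at as descriptions.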

Additional observations from a re-analysis of the deposited data

Results flagged for a closer look

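The line difference was also measured at 12 h and 24 h, and for 10 genes a joint edgeR test of whether it changed by either time passed an adjusted p of 0.05. All 10 are listed for that reason, and all 10 passed with the replicate block (415 genes in all) and in DESeq2 (71 genes). Means ± SD of 3 libraries are given at 0, 12 and 24 h in that order, and the number of the 18 fits without 1 library in which the test still passed follows each. No explanation was tested.

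Trib3 (adjusted p = 0.00455) averaged 443 ± 81.3, 427 ± 109 and 253 ± 67.4 CPM in NC and 72.4 ± 17.3, 346 ± 79.0 and 164 ± 25.8 CPM in KD, and passed in 18 of 18 fits. Aldh1l2 (adjusted p = 0.00395) averaged 84.3 ± 3.68, 43.7 ± 5.73 and 60.9 ± 2.48 CPM in NC and 23.4 ± 5.46, 35.8 ± 4.18 and 57.6 ± 4.29 CPM in KD, and passed in 18. In both, the lines were apart at 0 h and much closer at the later times. Gpt2 (adjusted p = 0.0428) averaged 133 ± 6.96, 89.8 ± 6.34 and 100.3 ± 3.97 CPM in NC and 55.3 ± 2.58, 74.9 ± 5.38 and 80.2 ± 2.27 CPM in KD, and passed in 3. Plau (adjusted p = 0.0266) averaged 242 ± 9.31, 174 ± 17.96 and 292 ± 4.70 CPM in NC and 121 ± 15.5, 193 ± 19.7 and 319 ± 39.8 CPM in KD, and passed in 13. Spink5, a protease inhibitor gene known from skin (adjusted p = 0.0405), averaged 52.9 ± 12.6, 108 ± 20.2 and 146 ± 25.0 CPM in NC and 9.85 ± 2.61, 70.1 ± 10.7 and 79.0 ± 15.6 CPM in KD, and passed in 5. These 3 also differed most at 0 h.

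Ifit3 (adjusted p = 0.0485) averaged 14.9 ± 2.03, 49.2 ± 10.5 and 9.70 ± 1.73 CPM in NC and 28.8 ± 2.62, 29.4 ± 4.90 and 11.3 ± 1.60 CPM in KD, and passed in 3. Its log2 fold change was positive at 0 h (0.95), negative at 12 h (-0.74) and positive at 24 h (0.24). Sgo2a, which protects chromosome cohesion (adjusted p = 0.0355), averaged 30.9 ± 2.52, 18.6 ± 1.95 and 36.2 ± 4.81 CPM in NC and 45.1 ± 6.38, 8.83 ± 1.29 and 34.7 ± 1.87 CPM in KD, and passed in 5. It shares 35.0% of its exon bases with a gene on the other strand. Kcnj2, an inward-rectifier potassium channel (adjusted p = 0.00455), averaged 129 ± 8.55, 81.7 ± 8.71 and 122 ± 13.4 CPM in NC and 114 ± 5.02, 157 ± 7.96 and 88.9 ± 6.94 CPM in KD, and passed in 18. Its difference was past the threshold at 12 h alone (log2 0.94, adjusted p = 0.000833). Serpinb1a, a neutrophil protease inhibitor (adjusted p = 0.0355), averaged 260.1 ± 23.4, 133 ± 28.8 and 128 ± 17.3 CPM in NC and 79.9 ± 24.5, 26.4 ± 2.48 and 11.7 ± 1.12 CPM in KD, and passed in 8. Its log2 fold change went from -1.70 at 0 h to -3.45 at 24 h, lower in KD at every time. The transcript AC147806.2 (adjusted p = 0.00395) averaged 3.11 ± 0.0398, 11.6 ± 0.871 and 18.5 ± 0.673 CPM in NC and 0 ± 0, 6.97 ± 0.160 and 10.5 ± 2.501 CPM in KD, and passed in 18. It had 49 counts in the NC control libraries and 0 in KD.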

How the results depend on the processing

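The count of 330 genes between the untreated lines was 335 to 404 with RLE or upper-quartile factors, other filters or CT010467.2 left out, and 475 with DESeq2. It fell to 160 with the 6 control libraries fitted alone, 126 without both libraries numbered 2, 208 with log2(TPM + 1) and 198 with log2(TPM + 0.1), and ranged from 213 to 302 with 1 library left out. The 12 h count was 388 and the 24 h count 410 with DESeq2, and with 1 library left out 101 to 271 and 41 to 131. The 10 genes with a change over time were 66 without a filter, 71 with DESeq2 and 4 to 12 with 1 library left out. Fitted with the replicate block, the counts were 1496 at 0 h, 1737 at 12 h, 1440 at 24 h and 415 for the change over time. At 0 h same-numbered deviations correlated at 0.273, 0.444 and 0.07, and 5 of 6 libraries correlated best with their own number, a hint from the data and not from the design. Bax, at 0.10, ranged from -0.1 without KD replicate 1 to 0.467 without NC replicate 1, and was also negative without NC replicate 2 (-0.083) or NC replicate 3 (-0.043). Of 2054 further gene values, 1685 kept direction and side of the threshold, 344 lost the call, 22 gained it and 3, those of Bax, turned. The Bak1 rate ratio ranged from 1.5 to 2.94. The cause of these shifts was not tested. Depth limits genes under 10 counts, Bak1 among them, and with 3 libraries per group no exact permutation p can pass.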

Other observations

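Aminoacyl-tRNA synthetases, the enzymes that load amino acids onto tRNAs and of which several are known ATF4 targets, were looked at as a family after their values were seen. Of 20 tested genes named for the cytosolic enzymes, 8 were lower in untreated KD and none was higher, against 1.3% of all genes tested called lower. The separate genes for mitochondrial enzymes were not looked at. Of the 20, 19 were negative in sign and the median log2 fold change was -0.60. Besides Cars, Tars and Eprs the calls were Aars, Gars, Lars, Nars and Sars (adjusted p of 0.0224 to 0.0373). Whether these calls depend on single libraries was not looked at. Cars, for cysteine, was at 64.3, 49.6 and 59.8 CPM in NC and 34.2, 28.7 and 31.0 CPM in KD, with a log2 fold change of -0.89 ± 0.18 SE (adjusted p = 0.00678), a call that held in all 6 fits without 1 control library. Tars, for threonine, was at 65.1, 53.9 and 77.0 CPM in NC and 29.2, 25.5 and 37.2 CPM in KD, with a log2 fold change of -1.09 ± 0.24 SE (adjusted p = 0.0142), and lost the call without NC replicate 3 or KD replicate 1 or 2. Eprs, for glutamate and proline, was at 492, 502 and 504 CPM in NC and 336, 328 and 325 CPM in KD, with a log2 fold change of -0.60 ± 0.13 SE (adjusted p = 0.0139), and lost it without KD replicate 1 or 3 and with the 6 control libraries fitted alone. At 12 h and 24 h none of the 20 passed in edgeR or DESeq2 (1 and 2 at an unadjusted p under 0.05), with medians of -0.11 and -0.10.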
